A study of Mus musculus with 18 samples.

Results

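The ERBB genes of this report are 10 of the 54752 genes counted in mouse liver: the receptors Egfr, Erbb2 and Erbb3, the EGFR-binding ligands Egf, Tgfa, Areg, Ereg, Hbegf and Btc, and the neuregulin Nrg1. They were chosen by their symbols, and no measured value enters that rule. The list was proposed with earlier results of these data known, so its calls are a description of these libraries and not independent evidence. All 10 passed the filter on low counts, but Areg passed it through the CCl4-treated mice, with 6 CCl4 libraries, 2 CCl4_PTH libraries and 0 control libraries above the filter's level of 0.121 CPM (counts per 1000000 counts of the library), so a difference from controls was built into its passing. Ereg was above that level in 6, 6 and 1 libraries of the same groups, so it too passed through the CCl4-treated mice. The other 8 genes were above it in all 18.

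RNA of liver tissue was counted in 18 male C57BL/6 mice, 6 per group, taken in week 22 of an experiment that 45 mice entered at 6 weeks of age. CCl4 mice had carbon tetrachloride injected into the peritoneum 2 times per week and water by gavage. CCl4_PTH mice had the same injections with PTH by gavage each day, where PTH stands for the traditional Chinese medicine Pien Tze Huang, which the labels also write as PZH. Control mice had olive oil injected and water by gavage. The labels name the CCl4 mice a liver cancer model, and how the 6 mice were picked from 15 per group, and whether the pieces of liver held tumour, is not stated in the labels. The libraries carry the numbers in their labels.

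ERBB receptors are tyrosine kinases of the cell surface that pair when a ligand binds, EGFR being the receptor of Egf, Tgfa, Areg, Ereg, Hbegf and Btc, and ERBB3 (with ERBB4) the receptor of the neuregulins. ERBB2 binds no known ligand and acts as the partner of the others, while the kinase of ERBB3 is weak, so that it signals through its partner. The ligands are made as membrane proteins and are cut free by ADAM proteases, and in liver EGFR, which hepatocytes carry in abundance, and its ligands are known for their part in regeneration after injury.

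What the ligands share is an EGF-like domain held by 6 cysteines, and its coding bases are shown because the domain defines the family whose messenger RNAs are compared. They were read from the longest annotated reading frame of each gene in the GENCODE M21 transcripts of GRCm38, from the first to the last cysteine, with the cysteine codons in capitals.
Egf: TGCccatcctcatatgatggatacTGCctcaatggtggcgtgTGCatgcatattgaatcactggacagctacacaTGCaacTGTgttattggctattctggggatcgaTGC
Tgfa: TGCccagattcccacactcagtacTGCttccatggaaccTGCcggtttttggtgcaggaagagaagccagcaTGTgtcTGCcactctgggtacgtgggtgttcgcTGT
Areg: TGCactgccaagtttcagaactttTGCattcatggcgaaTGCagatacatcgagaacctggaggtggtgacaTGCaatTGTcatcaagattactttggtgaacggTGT
Ereg: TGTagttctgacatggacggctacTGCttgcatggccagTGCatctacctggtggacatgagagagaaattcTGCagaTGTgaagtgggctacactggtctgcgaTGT
Btc: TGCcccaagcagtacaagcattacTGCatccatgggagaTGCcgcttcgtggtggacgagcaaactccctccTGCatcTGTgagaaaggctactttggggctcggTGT
Nrg1: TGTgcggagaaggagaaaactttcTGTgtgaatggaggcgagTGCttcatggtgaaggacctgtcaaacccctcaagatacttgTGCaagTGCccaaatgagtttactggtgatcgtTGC
In Tgfa, Areg, Ereg and Btc the stretch was 108 bases long with the same spacing of cysteines, 7, 4, 10, 1 and 8 residues apart. Egf had 1 residue more in the second gap, and Nrg1 had gaps of 7, 5, 13, 1 and 8 residues, which made 120 bases. Among the 4 stretches of equal length, Tgfa and Btc shared the most bases, 67 of 108 (62.0%), and Ereg and Tgfa the fewest, 49 of 108 (45.4%).

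In mice given CCl4, messenger RNA of 5 of the 7 ligands was higher than in controls, namely Nrg1, Btc, Areg, Ereg and Hbegf. Tgfa and Egf did not pass the test. Of all genes tested, 26.3% were higher by that test. Areg and Ereg passed the filter on low counts through the CCl4-treated mice, so their excess over controls was partly built in. Among the receptors, Erbb2 was higher, Erbb3 was lower, and Egfr did not pass. In mice given CCl4 and PTH, Nrg1 and Btc were lower and Erbb3 was higher than with CCl4 alone. Log2 fold changes come from one edgeR quasi-likelihood fit to 21840 genes, with an approximate standard error (SE) and a p adjusted by Benjamini-Hochberg over those genes, and a gene is called at an adjusted p under 0.05.

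In CCl4 against control, 6 of the 10 genes were called higher and 1 lower, where 26.3% of all genes tested were called higher and 21.2% lower. Their median log2 fold change was 1.05, and it was the same with Areg, at 0 counts in controls, set to its lower bound, while the median of all genes tested was 0.05. The CPM of the 6 CCl4 libraries lay wholly above those of the 6 control libraries for 4 of the 10 genes and wholly below for 1, where 14.8% and 11.3% of all genes did so. Areg and Ereg are among the 6 called higher and among the 4, and their excess over controls was partly built into their passing the filter. In CCl4_PTH against CCl4, 1 of the 10 was called higher and 2 lower, with 7.1% and 4.95% of all genes called, and the groups did not overlap for 1 higher and 2 lower genes, with 2.2% and 1.87% of all genes. Without CCl4_PTH 1, 1 was called higher and 4 lower in that comparison, with 10.3% and 7.06% of all genes called. Without control 1, control 8 and CCl4_PTH 1 together, 2 were called higher and 4 lower, with 10.7% and 7.62% of all genes. Against control, CCl4_PTH had 6 called higher and 0 lower, with 17.4% and 10.3% of all genes called, and 2 of the 10 lay wholly higher and 0 wholly lower, with 9.79% and 4.67% of all genes. Areg and Ereg are again among those 6, and Ereg among those 2. With all 3 comparisons resting on the same 18 libraries, each shares a group with the others. Of the called genes in these counts, none changed direction under DESeq2, library sizes alone, upper-quartile factors or counts without ribosomal RNA loci.

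**Figure D1:**
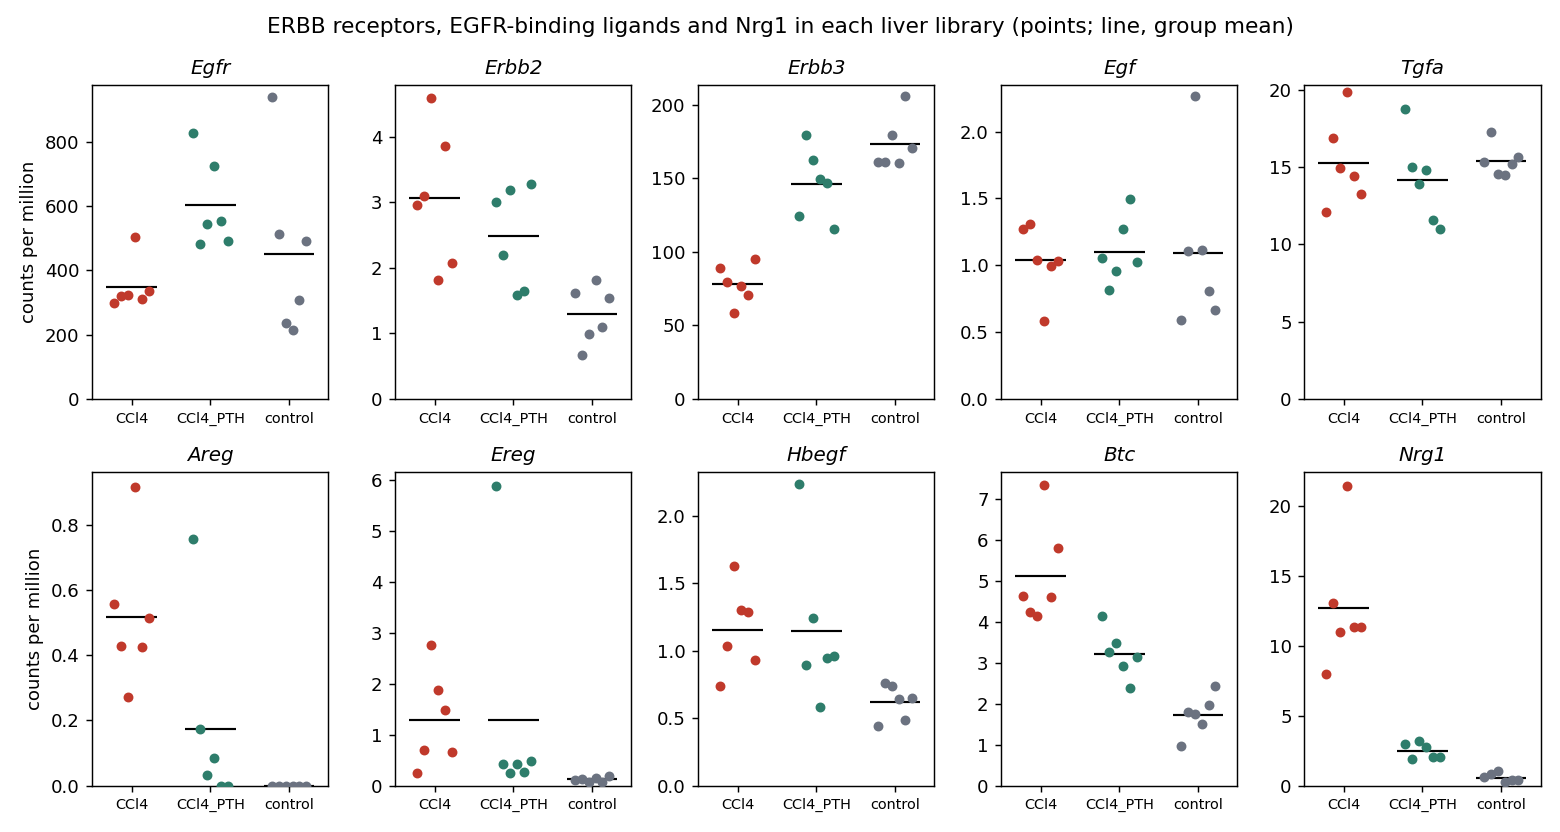
Levels in CPM of the 3 receptors and 7 ligands, 1 panel per gene, with a point for each library, a line at the group mean and the groups CCl4, CCl4_PTH and control from left to right on a linear axis that starts at 0. Nrg1 separates the 3 groups without overlap, and Areg is at 0 in all 6 controls.

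Total counts ran from 67229863 to 118877267 per library, and ribosomal RNA loci took 30.6% to 55.8% of them. Summed levels of several lists of cell type markers differed between the CCl4-treated mice and controls, while those of endothelium averaged 245 CPM in CCl4, 260 CPM in CCl4_PTH and 240 CPM in control livers. Markers within that list moved apart. Of its 8 genes, 4 were called higher and 2 lower in CCl4 against control, with 26.3% and 21.2% of all genes called. Medians in CCl4 and control livers were 11.2 and 2.36 CPM for Lyve1, 23.1 and 9.76 for Vwf, 42.9 and 68.7 for Kdr, and 16.8 and 20.5 for Clec4g. The 8 stellate cell and myofibroblast markers summed to 431 to 828 CPM in CCl4 libraries, 361 to 976 CPM in CCl4_PTH libraries and 113 to 142 CPM in controls. The sum of the 8 macrophage markers ran from 383 to 882 CPM in CCl4, from 269 to 502 CPM in CCl4_PTH and from 104 to 156 CPM in control libraries, and that of the 8 cholangiocyte markers from 101 to 186, from 67.7 to 263 and from 22.3 to 36.6 CPM. Hepatocyte markers, of which 7 of 8 were in the table, summed to 21109 to 54008 CPM in CCl4, 38131 to 50497 CPM in CCl4_PTH and 48660 to 63253 CPM in controls, with Alb, the serum albumin gene, at 11739 CPM or more in every library labelled liver. None of these sums passed an exact two-sided permutation test in CCl4_PTH against CCl4 (adjusted p from 0.15 to 0.71 over the 4 lists with ranges above, 0.48 for endothelium). That of the 6 adipose tissue markers passed, at 937 CPM in CCl4_PTH and 180 CPM in CCl4 livers on average (adjusted p of 0.033 by the same exact test), with 8.75 CPM in CCl4_PTH 1. Most of that sum was Car3, with medians of 1112 CPM in CCl4_PTH and 137 CPM in CCl4 livers, so the sum is no measure of fat tissue. Adipoq and Lep had a median of 0 in both groups. Cidec went the other way, with medians of 1.89 CPM in CCl4_PTH and 6.81 CPM in CCl4 livers. Control 1 had 45.7 CPM of the 8 pancreas markers, where the other 17 libraries had 0.949 to 4.81 CPM. The part of cell makeup in the results below was not tested, and in pieces of whole liver fewer cells of a type and less RNA per cell cannot be told apart. CCl4_PTH 1 stood apart from the other 5 CCl4_PTH libraries, with 176 CPM of the 8 neutrophil markers against 12.3 to 21.1 CPM, and 0.766 CPM of Car3, which hepatocytes, adipose and muscle tissue express, in a group whose median was 1112 CPM. Fitted results of genes that turn on it are given with and without it, while the tests of marker sums were run only with it. Its cholangiocyte sum of 263 CPM and its stellate cell and myofibroblast sum of 976 CPM were the highest of its group. The other 5 reached 118 and 664 CPM.

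Nrg1 (GRCm38 chr8:31814551-32884029, minus strand) encodes a neuregulin that binds ERBB3 and ERBB4. Its lowest, median and highest levels were 7.97, 11.3 and 21.4 CPM in CCl4 libraries, 1.88, 2.43 and 3.17 CPM in CCl4_PTH libraries and 0.230, 0.510 and 1.04 CPM in control libraries. Every CCl4 library was above every CCl4_PTH library, and every CCl4_PTH library above every control. The fitted log2 fold change was 4.41 ± 0.31 (SE) in CCl4 against control, with an adjusted p of 1.2e-08. Against CCl4, CCl4_PTH stood at −2.33 ± 0.28 with an adjusted p of 0.00014, so the level in CCl4_PTH livers was lower than with CCl4 alone, and it was still higher than in controls by 2.08 ± 0.29 with an adjusted p of 5.4e-05. All 3 calls held with any single library left out, between 4.17 and 4.61, between −2.42 and −2.11, and between 1.90 and 2.29 on the log2 scale. Of the gene's 10351 exon bases, 482 lie opposite an antisense gene, Gm26578, and the labels do not say whether counting used strand.

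Btc (GRCm38 chr5:91357261-91402994, minus strand), betacellulin, binds EGFR and ERBB4. It had 4.14, 4.62 and 7.35 CPM as lowest, median and highest level in CCl4 livers, 2.39, 3.20 and 4.14 CPM in CCl4_PTH livers and 0.962, 1.77 and 2.43 CPM in control livers. Every CCl4 library was above every CCl4_PTH library, though by a narrow margin between CCl4 4, the lowest, at 4.144 CPM and CCl4_PTH 1, the highest, at 4.138 CPM, and control 8 was above the lowest CCl4_PTH library. The log2 fold change was 1.55 ± 0.20 in CCl4 against control, with an adjusted p of 5.6e-06, and 0.88 ± 0.20 in CCl4_PTH against control, with an adjusted p of 0.0027. Between CCl4_PTH and CCl4 it was −0.67 ± 0.19 with an adjusted p of 0.031. This last call was lost with any of CCl4 5, CCl4 7, CCl4 8, CCl4_PTH 2, CCl4_PTH 3, CCl4_PTH 6, CCl4_PTH 7 or CCl4_PTH 8 left out, at adjusted p from 0.0527 to 0.083, with the log2 fold change between −0.73 and −0.52 over all single omissions.

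Areg (GRCm38 chr5:91139599-91148432, plus strand), amphiregulin, is a ligand of EGFR made by many epithelial and immune cells. It had 0.271, 0.471 and 0.917 CPM as lowest, median and highest level in CCl4 livers, from 272 counts in all. In CCl4_PTH livers, 2 libraries were at 0 and 3 lay between 0.033 and 0.174 CPM, while CCl4_PTH 1 had 0.758 CPM, and the group held 129 counts. None of the 6 control libraries had a count. Against the floor of 3 counts over the control group, Areg was at least 67.4-fold higher in CCl4 and at least 22.8-fold higher in CCl4_PTH livers, with adjusted p of 0.00097 and 0.011, the second of which did not pass with voom (adjusted p of 0.0893). Without CCl4_PTH 1, which holds most of its group's counts, the other 5 averaged 0.0586 CPM, at least 7.62-fold higher than that floor. The log2 fold change in CCl4_PTH against CCl4 was −1.44 ± 0.86 with an adjusted p of 0.31. Without CCl4_PTH 1 it was −2.67 with an adjusted p of 0.022, and the other 5 CCl4_PTH libraries were all below the lowest CCl4 library.

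Ereg (GRCm38 chr5:91074622-91093646, plus strand), epiregulin, binds EGFR and ERBB4. Its lowest, median and highest levels were 0.247, 1.09 and 2.77 CPM in CCl4, 0.255, 0.425 and 5.87 CPM in CCl4_PTH and 0.076, 0.125 and 0.188 CPM in control livers. All 12 libraries of CCl4-treated mice were above all 6 controls. The log2 fold change was 3.16 ± 0.79 in CCl4 against control, with an adjusted p of 0.0031, and 3.16 ± 0.79 in CCl4_PTH against control, with an adjusted p of 0.0067. The highest value, 5.87 CPM, is that of CCl4_PTH 1, and the other 5 CCl4_PTH libraries had 0.372 ± 0.099 CPM (SD, n = 5). The log2 fold change in CCl4_PTH against CCl4 was 0.00 (adjusted p of 1) with CCl4_PTH 1 and −1.70 (adjusted p of 0.012) without it, and without it the excess over control was 1.42 on the log2 scale. With voom, CCl4_PTH against control stood at 1.79 with an adjusted p of 0.0879. Of 4128 exon bases of Ereg, 141 lie opposite the antisense gene Gm19610.

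Hbegf, heparin-binding EGF-like growth factor, is a ligand of EGFR and ERBB4. It had 0.742, 1.16 and 1.63 CPM as lowest, median and highest level in CCl4 livers, 0.584, 0.953 and 2.24 CPM in CCl4_PTH livers and 0.440, 0.647 and 0.762 CPM in control livers. The ranges of both groups of CCl4-treated mice overlapped that of the controls. The log2 fold change was 0.88 ± 0.28 in CCl4 against control, with an adjusted p of 0.014, and 0.86 ± 0.28 in CCl4_PTH against control, with an adjusted p of 0.026. The second call was lost without control 1 (0.76, adjusted p of 0.0562), control 5 (0.78, adjusted p of 0.0595) or CCl4_PTH 1 (0.55, adjusted p of 0.0962), and with voom (0.59, adjusted p of 0.0718). CCl4_PTH against CCl4 gave −0.01 with an adjusted p of 0.98.

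Tgfa (GRCm38 chr6:86195223-86275719, plus strand), transforming growth factor alpha, an EGFR ligand that hepatocytes make, had 12.1, 14.7 and 19.9 CPM as lowest, median and highest level in CCl4, 10.96, 14.3 and 18.7 CPM in CCl4_PTH and 14.5, 15.3 and 17.3 CPM in control livers. The control range lay inside both others. No comparison of Tgfa was called in the fit reported, with log2 fold changes of −0.02 ± 0.13, −0.10 ± 0.13 and −0.12 ± 0.13 in CCl4 against control, CCl4_PTH against CCl4 and CCl4_PTH against control. With library sizes alone, which moves the median of all genes to 0.61, −0.13 and 0.50 in the 3 comparisons and the share of higher calls to 91.4%, 43.4% and 96.4% (55.3%, 58.9% and 62.8% in the fit reported), Tgfa in CCl4 against control stood at 0.56, below that median but called higher in that setting, with an adjusted p of 0.0054. Egf (GRCm38 chr3:129677565-129755316, minus strand), the ligand that salivary gland and kidney make in large amounts, was near 1 CPM in each group, with 0.586, 1.03 and 1.31 CPM in CCl4, 0.817, 1.04 and 1.498 CPM in CCl4_PTH and 0.591, 0.957 and 2.27 CPM in control livers. The highest of these is control 3, and the 3 log2 fold changes of Egf, −0.06 ± 0.29, 0.08 ± 0.28 and 0.02 ± 0.28 in the same order, were not called. The kidney markers Umod, Slc12a1, Kap and Aqp2 had 0 counts in all libraries. Of 11275 exon bases of Egf, 500 and 607 lie opposite a pair of antisense genes, 6330410L21Rik and Gm42697.

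**Figure D2:**
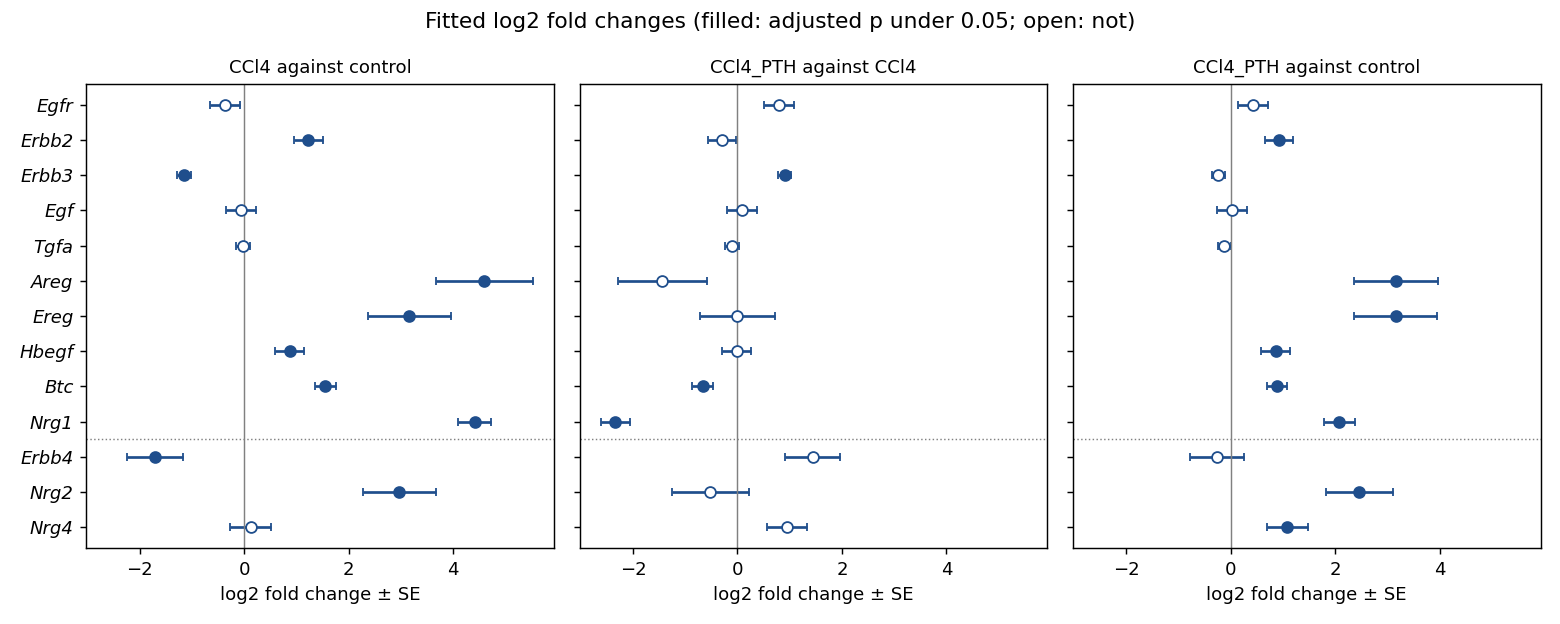
Fitted log2 fold changes with their standard errors in the 3 comparisons, for the 10 genes and, under the dotted line, 3 further family genes that passed the filter on low counts, with filled points where the adjusted p was under 0.05. Nrg1 stands at 4.41, −2.33 and 2.08, and Erbb3 at −1.15, 0.91 and −0.24. Values of Areg and Nrg2 against control rest on a group with no count and are not bounds.

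Of the receptors, Erbb3 (GRCm38 chr10:128567523-128589652, minus strand) was at 58.4, 77.97 and 95.2 CPM as lowest, median and highest level in CCl4, 116, 148 and 180 CPM in CCl4_PTH and 161, 166 and 206 CPM in control livers. Every CCl4 library was below every library of the other two groups, which overlapped each other. The log2 fold change was −1.15 ± 0.13 in CCl4 against control, with an adjusted p of 1.2e-06, and 0.91 ± 0.13 in CCl4_PTH against CCl4, with an adjusted p of 0.0004. In CCl4_PTH against control it was −0.24 ± 0.13 with an adjusted p of 0.16, and with library sizes alone 0.25, below that setting's median of all genes. Both calls held with any single library left out.

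Erbb2 (GRCm38 chr11:98412470-98437716, plus strand) had 1.81, 3.03 and 4.60 CPM as lowest, median and highest level in CCl4, 1.59, 2.60 and 3.29 CPM in CCl4_PTH and 0.667, 1.32 and 1.82 CPM in control livers. Group ranges overlapped, the lowest CCl4 library, CCl4 5, lying just under the highest control, control 4. It was higher by 1.23 ± 0.27 on the log2 scale in CCl4 against control, with an adjusted p of 0.0011, and by 0.93 ± 0.27 in CCl4_PTH against control, with an adjusted p of 0.016, while CCl4_PTH against CCl4 gave −0.30 ± 0.27 with an adjusted p of 0.52. The cholangiocyte marker sums given above, of cells in which ERBB2 is known to be carried, moved the same way, and their part in this result was not tested. Spp1 alone made up most of those sums, with medians of 90.8, 69.6 and 11.8 CPM in CCl4, CCl4_PTH and control livers. Medians of Krt19 were 1.75, 1.24 and 0.470 CPM, and those of Epcam 3.19, 2.04 and 0.595 CPM.

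Egfr (GRCm38 chr11:16752203-16918158, plus strand), the most abundant of the 10, had 299, 322 and 503 CPM as lowest, median and highest level in CCl4, 483, 548 and 828 CPM in CCl4_PTH and 215, 399 and 940 CPM in control livers. Controls spread over the whole range of the other two groups, control 4 being lowest and control 1 highest. Of the CCl4 libraries, CCl4 5 at 503 CPM stood above the other 5, which lay between 299 and 337 CPM, and it was the only one to reach into the CCl4_PTH range. No comparison was called, at −0.37 ± 0.29 (adjusted p of 0.31) in CCl4 against control, 0.79 ± 0.29 (adjusted p of 0.08) in CCl4_PTH against CCl4 and 0.42 ± 0.29 (adjusted p of 0.3) in CCl4_PTH against control. Without control 1, CCl4_PTH was higher than control by 0.75, with an adjusted p of 0.0211, and higher than CCl4 by 0.80, with an adjusted p of 0.0236. Without CCl4 5 the excess over CCl4 was 0.93 with an adjusted p of 0.0495.

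Levels of different genes were set side by side per kb of exon. Summed over the 7 ligands, the level was 5.78 ± 1.304 CPM per kb in CCl4, 3.93 ± 1.40 in CCl4_PTH and 3.07 ± 0.233 in control livers (SD, n = 6 each). Tgfa took 40.9% ± 3.12 of that sum in CCl4, 57.5% ± 7.48 in CCl4_PTH and 77.5% ± 4.03 in control livers. The share of Nrg1 was 20.7% ± 2.64 in CCl4, 6.44% ± 1.57 in CCl4_PTH and 1.81% ± 0.893 in control livers, and that of Areg 7.36% ± 2.27, 2.65% ± 3.58 and 0%. Without length scaling the share of Nrg1, whose exons are long, was 33.5% ± 3.84 in CCl4, 10.8% ± 2.15 in CCl4_PTH and 2.92% ± 1.38 in control livers. Btc held 19.8% ± 3.27 in CCl4, 18.9% ± 3.25 in CCl4_PTH and 12.4% ± 3.07 in control livers. Among the 7 ligands, Tgfa had the highest level per kb in all 18 libraries, and in controls Btc came next on average. Nrg4, which is not among the 7, averaged 1.69 CPM per kb in CCl4, 3.28 in CCl4_PTH and 1.55 in control livers. It was above Tgfa in CCl4_PTH 1, at 9.79 and 2.88 CPM per kb, and also in CCl4 1, CCl4_PTH 6, CCl4_PTH 7 and CCl4_PTH 8. In CCl4 livers Nrg1 and Btc, at 1.22 ± 0.441 and 1.14 ± 0.274 CPM per kb, did not differ beyond their spread. The receptors Egfr, Erbb2 and Erbb3 summed to 44.4 ± 6.82 CPM per kb in CCl4, 78.1 ± 11.5 in CCl4_PTH and 68.8 ± 22.9 in control livers. Left out of that sum, Erbb4 averaged 0.252, 0.688 and 0.826 CPM per kb in the same groups. Egfr held 69.0% ± 5.25, 67.7% ± 6.59 and 54.1% ± 14.2 of that sum in the same groups, Erbb3 29.6% ± 5.26, 31.7% ± 6.56 and 45.5% ± 14.1, and Erbb2 1.39% ± 0.608, 0.629% ± 0.242 and 0.392% ± 0.198. Shares within a sum move together, so these are a description with no test.

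**Figure D3:**
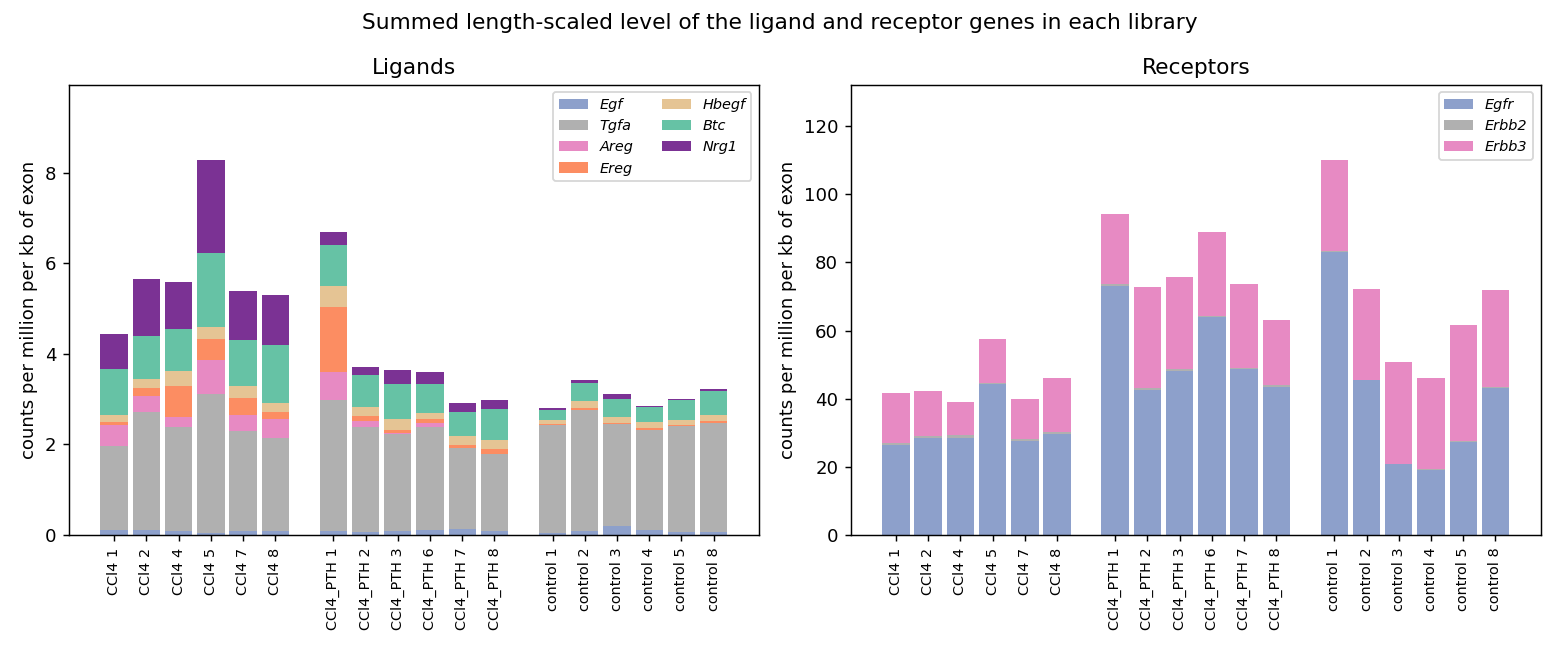
Stacked levels per kb of exon of the 7 ligands (left) and the 3 receptors (right) in each of the 18 libraries, with CCl4 libraries at the left, CCl4_PTH in the middle and controls at the right. Of the 7 ligands drawn, Tgfa is the main one of every library, Nrg1 is thick in the 6 CCl4 bars, and CCl4_PTH 1 and CCl4 5 have the tallest ligand bars of their groups. Nrg4 is not drawn.

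Ereg, Areg and Btc lie side by side on mouse chromosome 5 with Epgn, the ligand epigen, the 4 genes spanning 375.5 kb (GRCm38 chr5:91027464-91402994), 46.0 kb apart between Ereg and Areg and 209 kb between Areg and Btc. Epgn had 8 counts in CCl4, 6 in CCl4_PTH and 0 in control livers and did not pass the filter. The neighbours outside the ligands were read for comparison, since position is shared and not part of how the genes were chosen. On the Epgn side lie the chemokine genes Cxcl1 and Cxcl2, of which Cxcl2 was higher by 4.31 ± 1.32 on the log2 scale in CCl4 against control, with an adjusted p of 0.0126, and Cxcl1 stood at 1.27 ± 0.66 with an adjusted p of 0.126. Mthfd2l, a mitochondrial folate enzyme gene between the chemokines and Epgn, stood at 0.38 ± 0.20 with an adjusted p of 0.122. Of the chemokine genes beyond Cxcl1, 3 passed the filter and were higher, Cxcl5 at 2.57 ± 0.82, Ppbp at 1.30 ± 0.40 and Pf4 at 2.13 ± 0.56, with adjusted p of 0.0143, 0.0118 and 0.0039. On the other side Parm1, an androgen-regulated mucin-like gene, was higher by 2.16 ± 0.58, with an adjusted p of 0.0047. Of all genes tested, 26.3% were called higher in that comparison. Control means of Cxcl2 and Cxcl5, 0.0352 and 0.0348 CPM, lay under the filter's level of 0.121 CPM. Their excess over controls was thus partly built into their passing, as for Areg and Ereg. Control means of Pf4 and Parm1, 0.127 and 0.134 CPM, lay near that level. None of the 7 neighbours that passed the filter was called in CCl4_PTH against CCl4. Few genes were called there at all, 7.1% higher and 4.95% lower, so this count says little about the neighbours. Cxcl3 and Cxcl15 did not pass the filter. Cxcl3 averaged 0.0764 CPM in CCl4, 0.790 CPM in CCl4_PTH and 0 CPM in control livers.

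**Figure D4:**
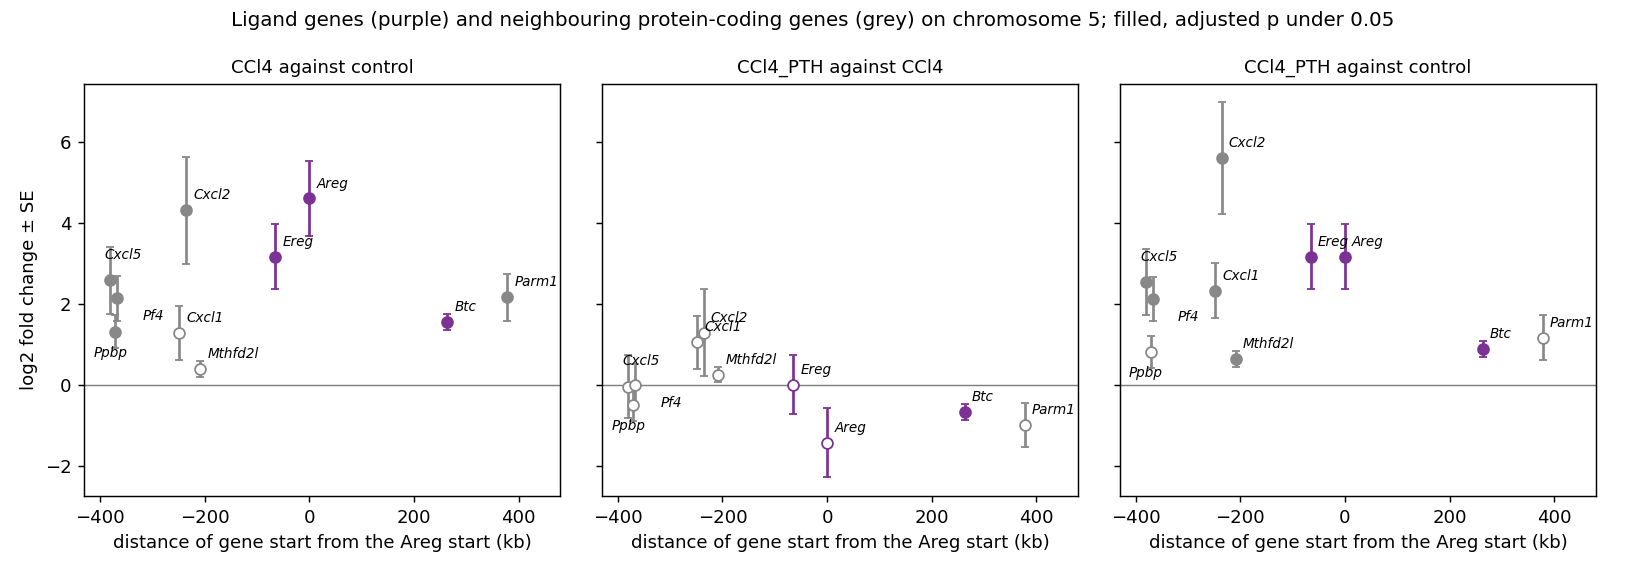
Log2 fold changes with standard errors of Ereg, Areg and Btc (purple) and of 7 neighbouring protein-coding genes (grey) against the distance of each gene's start from that of Areg in kb, with filled points where the adjusted p was under 0.05. All points lie above 0 in the comparisons with control, and in CCl4_PTH against CCl4 only Btc is filled.

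The promoter windows of Areg and Btc, 250 bases before to 50 bases after the annotated start in RefSeq on GRCm38.p6, are shown because these neighbours both were called in CCl4 against control and Areg had no count in controls. Capitals mark matches on either strand to the TATA box TATAAA, the GC box GGGCGG, the cAMP response element TGACGTCA, the AP-1 site TGANTCA, the TEAD site GGAATG and the CCAAT box.
Areg, chr5:91139349-91139648, plus strand: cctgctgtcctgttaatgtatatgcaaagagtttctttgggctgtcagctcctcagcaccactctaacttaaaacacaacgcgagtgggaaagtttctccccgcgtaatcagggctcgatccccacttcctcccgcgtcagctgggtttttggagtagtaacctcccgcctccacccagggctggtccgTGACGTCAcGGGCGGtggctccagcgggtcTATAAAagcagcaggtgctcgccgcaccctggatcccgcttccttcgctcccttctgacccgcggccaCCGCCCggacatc
Btc, chr5:91402945-91403244, minus strand: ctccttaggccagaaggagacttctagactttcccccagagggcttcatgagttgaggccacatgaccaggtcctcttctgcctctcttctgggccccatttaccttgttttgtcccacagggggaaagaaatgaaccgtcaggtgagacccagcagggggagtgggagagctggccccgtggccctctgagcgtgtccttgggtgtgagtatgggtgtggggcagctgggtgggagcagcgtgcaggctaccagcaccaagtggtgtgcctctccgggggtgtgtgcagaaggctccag
The Areg window holds a cAMP response element 61 to 54 bases before the start, a GC box 52 to 47 bases before it, a TATA box 31 to 26 bases before it and another GC box after it, none overlapping another. Of 32851 windows of the same length in the table, 1.79% hold the cAMP response element, 13.6% the TATA box and 35.7% the GC box. In the Btc window none of the 6 motifs was found, each of the other 3 being held by 7.81% (AP-1), 14.7% (TEAD) and 37.4% (CCAAT) of all windows. Of the 10 genes, 6 had an entry in that table and were searched. Windows of Egfr and Tgfa held GC boxes, that of Erbb2 a TEAD site and a CCAAT box, and that of Egf none of the motifs.

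Likeness to other genes was read as the mean absolute difference of standardized log2 CPM over the 18 libraries, with 14942 protein-coding genes compared. Nearest to Nrg1 were Prag1 (0.24), Ier5 (0.26) and Nid1 (0.26), and nearest to Erbb3 were Cdc14b (0.19), Tsc1 (0.19) and Abhd3 (0.22). For Btc they were Cdr2l (0.25), Nipal1 (0.26) and Ly6d (0.27), for Areg Fndc3b (0.25), Gars (0.25) and Arf4 (0.27), for Ereg Tubb5 (0.24), Ctla2a (0.25) and Osmr (0.25), and for Erbb2 BC034090 (0.27), Sept8 (0.28) and Mvb12b (0.29). Hbegf was nearest to Pdk4 (0.32), Ereg (0.34) and Ch25h (0.34), and among the 10 genes the pair Ereg and Hbegf was the most alike. Nearest to Egfr were Cop1 (0.32), Atp11b (0.36) and Selenot (0.37). Farthest from their nearest genes were Tgfa, with Gimap9 (0.40), Ptpn11 (0.41) and P4ha2 (0.45), and Egf, with Det1 (0.50), Pcdhb8 (0.56) and Rad54b (0.56). All of these distances share the libraries and their scaling.

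Further genes of the family were Erbb4, the fourth receptor, and the ligands Epgn, Nrg2, Nrg3 and Nrg4, of which Erbb4, Nrg2 and Nrg4 passed the filter. Erbb4 had 0.879, 2.58 and 5.79 CPM as lowest, median and highest level in CCl4, 1.54, 8.66 and 14.9 CPM in CCl4_PTH and 4.86, 8.68 and 16.1 CPM in control livers. It was lower in CCl4 than in control livers, at −1.71 ± 0.53 on the log2 scale, with an adjusted p of 0.014, and 4 of the 6 CCl4 libraries were below all controls. That call was lost with library sizes alone (−1.23, adjusted p of 0.0624) and beyond a 1.5-fold change (adjusted p of 0.0532). CCl4_PTH against CCl4 gave 1.44 with an adjusted p of 0.083, and at 1.68 with an adjusted p of 0.0226 without CCl4_PTH 1 and 1.73 with an adjusted p of 0.0485 without CCl4 1. Nrg2 had 85 counts in 4 of 6 CCl4 libraries, 66 in 6 of 6 CCl4_PTH libraries and 0 in controls, at least 19.8-fold and at least 13.1-fold higher, with adjusted p of 0.0028 and 0.0114, and like Areg it passed the filter through the treated mice. Nrg4, a ligand of ERBB4 known from brown fat, had 8.24 to 15.2 CPM in 5 CCl4_PTH libraries and 59.5 CPM in CCl4_PTH 1. Its call in CCl4_PTH against control, 1.08 ± 0.39 with an adjusted p of 0.048, became 0.34 with an adjusted p of 0.215 without that library, and was also lost, at adjusted p from 0.0540 to 0.098, without any one of control 2, control 3, control 4, control 5, control 8 or a CCl4 library. Of Nrg3 only 1 count was found.

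Genes that act on ligands, receptors and their signal were followed in 4 lists of 15, 22, 30 and 10 symbols, of which 4 symbols stand in 2 lists, and these lists too were drawn up with earlier results of these data known. The counts called in each list stand beside the shares of all genes called. Those were 26.3% higher and 21.2% lower in CCl4 against control, and 7.1% and 4.95% in CCl4_PTH against CCl4. In CCl4_PTH against control they were 17.4% and 10.3%, and several list counts lie near such shares. Of 14 measured genes of ligand shedding and trafficking, 11 were higher in CCl4 than in control livers (Adam8, Adam10, Adam12, Adam15, Adam17, Adam19, Cd9, Nrd1, Rhbdf1, Rhbdf2 and Timp3) and 1 lower (Bace1), with a median log2 fold change of 0.90. Adam8, a protease of leukocytes, averaged 21.7 ± 11.6 CPM in CCl4 and 0.377 ± 0.0513 CPM in control livers (SD, n = 6 each), a log2 fold change of 5.76 ± 0.60 with an adjusted p of 1.16e-06. Adam17, the main sheddase of Areg, Ereg, Hbegf and Tgfa, was higher by 0.89 ± 0.18, with an adjusted p of 0.00043, and its partners Rhbdf1 and Rhbdf2, the iRhom proteins, by 0.90 ± 0.11 and 1.09 ± 0.21, with adjusted p of 4.47e-06 and 0.000285. Timp3, an inhibitor of that protease, was also higher, by 0.82 ± 0.14 with an adjusted p of 9.74e-05. With PTH, 3 of the 14 were lower than in CCl4 alone, Adam8 at −1.94 ± 0.49, Adam15 at −0.63 ± 0.18 and Rhbdf1 at −0.38 ± 0.11, with adjusted p of 0.0168, 0.0296 and 0.0342, and 0 were higher. That call of Adam15 was lost without CCl4 4, CCl4 7, CCl4_PTH 6, CCl4_PTH 7 or CCl4_PTH 8, at adjusted p from 0.0576 to 0.0955. In CCl4_PTH against control 9 were higher and 1 lower. The neutrophil marker sum ran from 14.2 to 93.4 CPM in CCl4 livers, from 12.3 to 21.1 CPM in 5 CCl4_PTH livers, with 176 CPM in CCl4_PTH 1, and from 1.78 to 4.17 CPM in control livers. It was higher in CCl4 than in control livers, as Adam8 was, and did not pass the exact permutation test in CCl4_PTH against CCl4 (adjusted p of 1), with means of 42.1 and 37.2 CPM. The first mean includes the 176 CPM of CCl4_PTH 1, and the test was not run without that library. The part of these cells in the values of Adam8 was not tested.

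Of 22 receptor and pathway inhibitors, 12 were higher and 5 lower in CCl4 than in control livers. Errfi1, a cytoplasmic inhibitor of EGFR, was lower, averaging 409.9 ± 86.7 CPM in CCl4 and 826 ± 156 CPM in control livers (SD, n = 6 each), at −1.01 ± 0.21 with an adjusted p of 0.000724. It is named here with its values already seen, as are Adam17, Rhbdf1, Rhbdf2 and Timp3. Cbl, the ubiquitin ligase that sends active EGFR to lysosomes, was higher by 1.29 ± 0.15 with an adjusted p of 2.63e-06, and Dusp5, a nuclear phosphatase of ERK, by 2.99 ± 0.40 with an adjusted p of 8.46e-06. In CCl4_PTH against CCl4, 2 of the 22 were higher and 5 lower, the lower ones including Dusp5 at −1.70 ± 0.37 with an adjusted p of 0.0079 and Cbl at −0.53 ± 0.15 with an adjusted p of 0.029. Lrig3, a membrane protein placed in this list with its family, was higher, at 0.52 ± 0.12 with an adjusted p of 0.0119. Whether Lrig3 itself restrains ERBB receptors was not tested. The call of Cbl was lost without CCl4 2, CCl4 4, CCl4 7, CCl4_PTH 3, CCl4_PTH 6 or CCl4_PTH 7, at adjusted p from 0.0539 to 0.0838. In CCl4_PTH against control 6 were higher and 2 lower, Errfi1 and Lrig3, and Lrig3 turned to 0.07 with library sizes alone.

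Of 30 adaptors and members of the RAS-ERK and PI3K core, 10 were higher, 10 lower and 10 not called in CCl4 against control, with a median log2 fold change of −0.08. Src, a kinase, was higher by 2.35 ± 0.24 and Gab2, a docking protein, by 1.79 ± 0.19, with adjusted p of 5.55e-07 and 8.5e-07. Plcg1, phospholipase C gamma, was lower, at −0.79 ± 0.11, with an adjusted p of 1.24e-05, a call that did not hold with library sizes alone. Against CCl4, CCl4_PTH livers had 3 of the 30 higher, Plcg1 among them at 0.47 ± 0.11 with an adjusted p of 0.00977, and 1 lower, Src at −0.86 ± 0.23 with an adjusted p of 0.0199, which did not pass without CCl4 4 (−0.66, adjusted p of 0.0644) or CCl4_PTH 6 (−0.73, adjusted p of 0.0521). Against control, CCl4_PTH livers had 4 higher and 6 lower, of which Plcg1 turned to 0.16 with library sizes alone.

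Of 10 genes known to be turned up by ERK signalling, 4 were higher in CCl4 than in control livers, Ccnd1, Dusp4, Etv5 and Spry2, and 2 lower, Phlda1 and Spry4. Ccnd1, cyclin D1, averaged 82.7 ± 30.9 CPM in CCl4 and 21.4 ± 7.07 CPM in control livers (SD, n = 6 each), at 1.95 ± 0.29 with an adjusted p of 3.58e-05. Phlda1, a pleckstrin homology protein, averaged 12.01 ± 2.39 CPM in CCl4 and 54.0 ± 28.3 CPM in control livers, at −2.17 ± 0.40 with an adjusted p of 0.000285. In CCl4_PTH against CCl4, Dusp4, another ERK phosphatase, was lower, at −1.17 ± 0.29, with an adjusted p of 0.0136, and Phlda1 and Spry4 were higher, Phlda1 at 1.27 ± 0.39 with an adjusted p of 0.0422. That call of Phlda1 was lost without any CCl4 library or without CCl4_PTH 2, CCl4_PTH 6, CCl4_PTH 7 or CCl4_PTH 8, at adjusted p from 0.052 to 0.109. In CCl4_PTH against control 2 of the 10 were higher and 0 lower. Over the 4 lists and the further family genes together, 36 of 75 measured genes were higher and 18 lower in CCl4 against control, where 26.3% and 21.2% of all genes were called, and 6 higher and 9 lower in CCl4_PTH against CCl4, where 7.1% and 4.95% were. Against control, CCl4_PTH had 23 of the 75 higher and 9 lower, where 17.4% and 10.3% of all genes were called. Exon bases opposite another gene were 1263 of 6145 in Adam15 (4731419I09Rik), 1733 of 8144 in Timp3 (Syn3), 547 of 2473 in Dusp5 (AC137853.2), 1100 of 4709 in Ccnd1 (LTO1) and 727 of 2205 in Phlda1 (Gm28592), so without strand their reads could not be told apart there. The count of CCl4_PTH against CCl4 depends on single libraries. It was 24 in all without CCl4_PTH 1, 5 without CCl4 4 or CCl4_PTH 6, 6 without CCl4_PTH 7, 8 without CCl4 2 or CCl4 7, and 9 without CCl4_PTH 2 or CCl4_PTH 8.

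**Figure D5:**
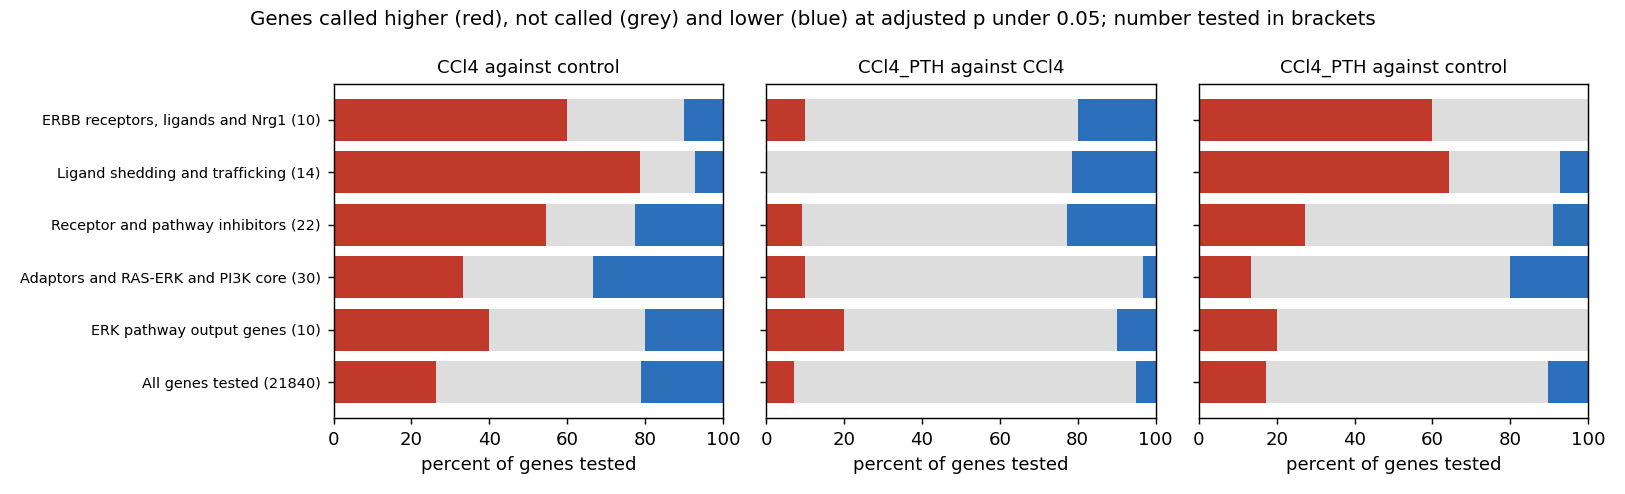
Percent of the genes tested that were called higher (red), not called (grey) and called lower (blue) in the 3 comparisons, for the 10 genes, the 4 lists and all genes tested, with the number tested in brackets. The shedding list has 11 of 14 genes in red in CCl4 against control, and the adaptor list has 10 red and 10 blue.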

How the data were processed

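Per the labels' protocols, liver RNA was freed of ribosomal RNA, made into NEBNext libraries and read as pairs on an Illumina HiSeq instrument. The authors deposited 1 table of estimated counts, whole and unscaled, and rounding changed 0 values. Of tools, the submitters' processing notes list HISAT2 2.2.1, Bowtie2 2.5.1, StringTie 2.1.5, cutadapt 4.2 and FastQC 0.11.9, with GRCm38 as build and no roles. What made the counts, and whether strand was used, is not stated there.

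Counts were fitted with edgeR 4.0.16 (R 4.3.3): filterByExpr with a minimum count of 10, which kept 21840 of 54752 genes, TMM factors, 3 groups in one robust quasi-likelihood fit with no block, and Benjamini-Hochberg adjustment over all genes kept with a threshold of 0.05. As SE, the absolute log2 fold change over the root of the F statistic is given. CPM are counts over the TMM-scaled library size, and levels per kb divide by the union of exons in GENCODE M21, to which 54723 identifiers matched. Promoters are RefSeq's (GRCm38.p6). Tested on simulated data for CCl4 against control (21840 genes), the fit called 47 of 100 genes changed 2-fold and 83 of 100 changed 4-fold. No other genes were changed there, while 10362 were called in the data, so these rates need not hold for the fit reported. The floor of 3 counts covers counting error only. No 2 libraries of a group agreed within sampling noise.

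The 10 genes, the pathway lists and the tests were chosen with earlier results of these data known. The genes named are the 10, the 5 further family genes, from each of 4 pathway lists the 2 with the smallest p in CCl4 against control and the 2 in CCl4_PTH against CCl4, and for each of the 10 the 3 protein-coding genes most alike, with exceptions marked. Alternatives were DESeq2 1.42.0, voom with quality weights in limma 3.58.1, other scalings and filters, a replicate block and left-out libraries. Libraries of the same number showed no clear shared deviation (correlations from −0.21 to 0.083), which cannot exclude a shared litter, batch or day. The labels do not say what equal numbers share, and the fit reported has no block.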

Additional observations from a re-analysis of the deposited data

Results flagged for a closer look

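In 7 of 40 gene and group sets of 6 libraries, 1 library stood far from the other 5. Chance gives this in about 1 in 20 sets of normally spread values, a rate that does not apply to Epgn and Nrg3, where a single library had any count. In 3 of the 7 sets it was CCl4_PTH 1, with 5.87 CPM of Ereg against 0.255 to 0.477 CPM in the other CCl4_PTH libraries, 0.758 CPM of Areg against 0 to 0.174 CPM, and 59.5 CPM of Nrg4 against 8.24 to 15.2 CPM. CCl4 5 had 503 CPM of Egfr against 299 to 337 CPM in the other CCl4 libraries. Control 3 had 2.27 CPM of Egf against 0.591 to 1.12 CPM in the other controls. Epgn had 0.0511 CPM in CCl4_PTH 8 and 0 in the other 5, and Nrg3 had 0.0111 CPM in CCl4_PTH 3 and 0 in the other 5, from 6 counts and 1 count.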

How the results depend on the processing

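Over all alternatives run, each called direction of the 10 genes held, and the 7 calls in CCl4 against control passed the threshold in each except that of Hbegf beyond a 1.5-fold change. With any single library left out, 7 of the 10 were called in CCl4 against control, 2 to 5 in CCl4_PTH against CCl4 and 5 to 6 in CCl4_PTH against control. The cause of the changes below was not tested. Over single omissions the genes called ran from 9335 to 10918, from 1509 to 3854 and from 5168 to 6326 in the 3 comparisons, and the other pathway genes called from 49 to 55, from 5 to 24 and from 25 to 34.

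Calls beyond a 1.5-fold change numbered 4762 genes and 24 other pathway genes in CCl4 against control, 84 genes, 1 of the 10 and 0 other pathway genes in CCl4_PTH against CCl4, and 2110 genes, 3 of the 10 and 10 other pathway genes in CCl4_PTH against control. In CCl4_PTH against CCl4 the genes called were 2632 in the fit reported, 1097 with library sizes alone, 4223 with voom and 4136 without control 1, control 8 and CCl4_PTH 1 together, and of the 10, 6 were called in the last. The 15 other pathway genes called there became 4 with library sizes alone, 9 with no filter, 24 with voom, 24 without the 3 libraries and 5 with only the 2 groups compared. In CCl4_PTH against control, library sizes alone called 9912 genes and 49 other pathway genes. With the replicate number as a block, although the labels do not say what equal numbers share, 84 genes, 1 of the 10 (Nrg1) and 0 other pathway genes were called in CCl4_PTH against CCl4, and 3343, 3 and 19 in CCl4_PTH against control.

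Signs turned where a log2 fold change was near 0 or not called, and for Lrig3 and Plcg1. With library sizes alone, Egfr (0.10), Egf (0.59) and Tgfa (0.56) turned in CCl4 against control, Egf (−0.037) in CCl4_PTH against CCl4, and Erbb3 (0.25), Tgfa (0.36), Erbb4 (0.15), Lrig3 (0.074) and Plcg1 (0.16) in CCl4_PTH against control. For CCl4_PTH against CCl4, Ereg became 0.0062 and Hbegf 0.0029 with no filter, 0.014 and 0.013 with only the 2 groups, Ereg 0.014 with upper-quartile factors, and Nrg2 0.25 with voom. With the block, Egf became 0.066, −0.15 and −0.080 in the 3 comparisons and Hbegf 0.13 in CCl4_PTH against CCl4. Voom gave Egfr 0.017 in CCl4 against control, and Egf −0.0050 and Dusp4 −0.22 in CCl4_PTH against control. Without ribosomal RNA loci these last were −0.00089 and −0.015, and with upper-quartile factors Dusp4 was −0.00092. Without the 3 libraries, Egfr was 0.10 in CCl4 against control, and Egf −0.26, Erbb4 0.38 and Dusp4 −0.38 in CCl4_PTH against control. Over single omissions Egf ran from −0.23 to 0.24, from −0.020 to 0.17 and from −0.13 to 0.34, Tgfa from −0.14 to 0.0060 and Nrg4 from −0.00090 to 0.21 in CCl4 against control, Ereg from −1.70 to 0.36 and Hbegf from −0.29 to 0.13 in CCl4_PTH against CCl4, and Dusp4 from −0.25 to 0.14 in CCl4_PTH against control.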
